A study of Mus musculus with 3 samples.

Results

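The T cell receptor alpha variable segments are the genes whose GENCODE M21 symbol begins with Trav. All 128 such genes, of 55536 mouse genes in the deposited gene tables, were taken as members, and no measured value entered their choice. They were followed in polyadenylated RNA-seq of activated regulatory T cells, the Foxp3-expressing cells that restrain immune responses. The material came from male mouse at 3 weeks of age, labelled as primary cells originating from the whole organism, with no strain, genotype or activating treatment named. There was a single group of 3 libraries, numbered here as in the labels, which are technical replicates of 1 biological replicate. There was no control group, so no comparison between conditions was possible, and every spread below is a spread between these libraries. The labels do not say at what step the libraries were split.

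A T cell receptor is a pair of chains, most often alpha and beta, that recognises a peptide held by an MHC molecule. The alpha gene is assembled in the thymus by joining a V segment to a J segment, after which splicing links the joined exon to the constant exons of Trac. Each T cell therefore usually transcribes a single productive V segment, and reads on Trav genes in a population describe which V segments its cells use. The V segment encodes the leader peptide, the framework and the first and second complementarity-determining loops, and it ends just after a conserved cysteine, where the third loop begins. Joining starts with V segments near the J segments and can move outwards as a cell rearranges again. Mouse Trav genes lie in a tandem array parts of which were duplicated, and symbols carry a d or an n after the subgroup number for copies in the duplicated stretches.

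All 128 segments lay on the plus strand of chromosome 14 of mm10, between 52427928 and 53977678, a span of 1549.75 kb. Trac, the constant gene, started at 54220521, which is 242.843 kb beyond the last segment, Trav23. The annotation called 108 of the segments V genes and 20 V pseudogenes, and their symbols formed 23 numbered subgroups. In all 108 V genes the coding sequence was split over 2 exons, the first holding most of the leader and the second, the V exon, the rest. The V exon held 264 to 312 coding bases, with a median of 291. An in-frame cysteine codon lay within 15 bases of its end in 102 of the 108, and a codon of the form GCN, alanine, came next in 89 of those 102. In the rest, the V genes of subgroup 15, the cysteine codon lay 16 bases from the end and GCT came next.

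Trav7-4 is shown in full because it received the most reads of all segments (V exon, chr14:53461447-53461738, plus strand, from the GENCODE M21 transcripts, 5′ to 3′). The capitals mark the last in-frame cysteine codon, where the V-encoded part of the third loop begins.

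Trav7-4: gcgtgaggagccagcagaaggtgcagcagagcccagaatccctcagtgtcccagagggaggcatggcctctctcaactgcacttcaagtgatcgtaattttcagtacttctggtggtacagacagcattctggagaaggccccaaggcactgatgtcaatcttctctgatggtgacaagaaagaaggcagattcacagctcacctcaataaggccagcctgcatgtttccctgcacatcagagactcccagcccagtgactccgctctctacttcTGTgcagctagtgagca

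The ends of the most used segments of the other 4 leading subgroups are given for comparison, with the same codon in capitals. They lie at chr14:53641168-53641225 (Trav14-2), chr14:53488510-53488567 (Trav9-1), chr14:53710361-53710419 (Trav6-7-dv9) and chr14:53684120-53684177 (Trav4-4-dv10). The 4 windows differ in the bases before the codon and share its place near the end.
Trav14-2: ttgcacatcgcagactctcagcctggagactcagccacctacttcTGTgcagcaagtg
Trav9-1: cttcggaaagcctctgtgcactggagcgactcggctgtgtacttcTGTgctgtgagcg
Trav6-7-dv9: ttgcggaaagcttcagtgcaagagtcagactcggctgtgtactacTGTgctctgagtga
Trav4-4-dv10: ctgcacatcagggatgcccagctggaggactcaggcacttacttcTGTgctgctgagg

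Within a subgroup the V exons were alike, with a median identity of 88.5% over 420 pairs, against 56.3% over 5358 pairs from different subgroups. Subgroup 14 had a median identity of 95.2% over its 36 pairs. In subgroup 6, which had the most members, the median was 80.5% over 105 pairs. Across all V genes, 17 pairs had identical V exons. These likenesses bear on every value below, because a read that fits several copies equally well must be divided between them. Effective lengths in the tables equalled the annotated length minus 49 bases in at least 99.96% of entries of 100 or more bases, as for 50-base reads. The transcripts were therefore cut into words of 50 bases. Of the 128 segments, 42 had no word that occurred in no other annotated gene, 10 had only such unique words, and the median segment had 36.8% unique words.

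Gene reads (expected counts, which divide ambiguous reads by estimation) numbered 30362256, 28419259 and 31959927 in libraries 1, 2 and 3. Regulatory T cell genes on a fixed list were at high levels: Foxp3, the lineage's transcription factor, had 134.52, 149.64 and 106.32 TPM (a level scaled by transcript length and by the library's total), and all 5 genes of the list exceeded 1 TPM in every library. CD8 T cell markers were present, with Cd8b1 at 19.05 to 24.61 TPM and Cd8a at 1.33 to 3.75. B cell markers summed to 42.94, 40.21 and 67.69 TPM over 5 genes, highest in library 3. Of 5 genes on a thymocyte list, those for receptor assembly were at or near 0, with Rag1 and Rag2, the recombinase that joins the segments, and Ptcra, the pre-T cell receptor alpha chain, each at 0.08 TPM or less. The thymocyte list also held Cd1d1, a lipid-presenting molecule made by other cells too, at 90.28, 96.15 and 79.05 TPM. Trav reads from cells other than regulatory T cells cannot be told apart from those of regulatory T cells in these bulk libraries.

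Trav genes together received 8075.08, 7462.33 and 11372.89 reads. These were 0.0266%, 0.0263% and 0.0356% of gene reads, with 95% Wilson intervals of 0.0260 to 0.0272, 0.0257 to 0.0269 and 0.0349 to 0.0362, which cover counting error only. Libraries 1 and 2 overlapped and library 3 stood above both. The mean share was 0.0295% ± 0.00529 (SD, 3 libraries). In TPM the summed level was 1351.72, 1334.74 and 1604.80. In a bulk sample, fewer cells of a type and less RNA per cell cannot be told apart.

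The higher value in library 3 was shared by other genes of the alpha-beta receptor. Per effective library size, library 3 stood at 1.28 times the mean of the other libraries for Trav, 1.39 for the 35 beta V genes, 1.27 for the 60 alpha J genes and 1.21 for Trac. Trdc, the delta constant gene, was at 1.04, the 6 delta V genes at 1.63 and the 1 gamma V gene with a Trgv symbol at 0.77. The same ratio had a median of 1.18 over the 1238 tested genes outside Trav of up to 600 bases, against 0.96 over all tested genes. Trav transcripts are short, and the part of transcript length in their ratio was not tested. Of the 5 B cell markers, 4 were also highest in library 3. So were the CD8 T cell markers Cd8b1 (22.73, 19.05 and 24.61 TPM), Cd8a (3.50, 1.33 and 3.75) and Eomes (3.37, 1.81 and 4.67). Of the regulatory T cell genes, Cd4 (408.34, 434.08 and 259.2 TPM), Ctla4 (269.23, 349.91 and 240.92) and Foxp3 (134.52, 149.64 and 106.32) were lowest in library 3. Il2ra and Ikzf2 were not. The part of B cells, CD8 T cells or regulatory T cells was not tested either.

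The 19 matched genes of a list of 22 for receptor assembly and its constant chains gave the setting of these levels. Trac had 2176.58, 2046.94 and 2445.73 TPM, and Trbc2, a beta constant gene, 2820.17, 2726.35 and 3643.68. The CD3 chains, which carry the receptor's signal, ranged from a mean of 289 TPM (Cd247) to 1012 (Cd3g). Trdc had 2.65, 3.28 and 2.90 TPM, far under Trac in every library. The end-joining genes ranged from Lig4, the ligase, at 3.01 TPM on average to Xrcc6, a DNA end-binding subunit, at 64.3 TPM. Dntt, which adds bases at the joint in thymocytes, had 0.39, 0.21 and 0.71 TPM. Of 16 list genes with enough reads, 12 (75%) differed between the libraries by the chi-square test explained below, against 79.8% of all tested genes.

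Reads were spread widely over the segments. A mean of 10 or more reads was reached by 104 of the 128, 24 fell below it, and 7 had no read in any library. The 10 segments with most reads held 26.6% of Trav reads, and 24 segments held 50% of them. The 5 with most reads held 17.96%, 15.32% and 14.87%, a mean of 16.1% ± 1.67. The median tested segment held 0.705%.

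To ask whether single segments differed between the libraries, the 3 rounded counts of each gene were compared with the effective library sizes by a chi-square test, adjusted by the Benjamini-Hochberg method over all 17190 genes that averaged at least 10 reads. The test compares these libraries with counting error and says nothing of a condition. It called 57 of the 104 tested Trav segments (54.8%), where 79.8% of all tested genes were called. Among genes with no more reads than the most read segment, 67.3% of 8313 were called. Of the 57 called segments, 41 were highest in library 3, 9 in library 1 and 7 in library 2. Called segments highest in library 3 made up 39.4% of those tested, against 27% of all tested genes. Among the 1342 tested genes of up to 600 bases, Trav included, the share was 37.8%, close to that of Trav, and 61.2% were called. Over all tested genes the corresponding share was 26.5% for library 1 and 26.3% for library 2.

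The higher Trav total in library 3 enters these calls. When each library's Trav total replaced its size, 39 of 104 segments were called (37.5%), 36 of them also called against library sizes and 3 not. The p-values were adjusted together with the library-size p-values of the other tested genes, most of them called. That makes the threshold looser than adjustment over Trav alone. The 39 were highest 13 times each in libraries 1, 2 and 3. Against library sizes, 79.8% of all tested genes were called. Some of the 39 were near-identical copies, described below, whose reads are divided by estimation. With pairs of such copies summed, 35 of 86 units were called (40.7%). The listed mix of segments, and not only their sum, therefore differed between libraries beyond counting error. No other set of genes was compared with its own total, so this is not shown to be particular to Trav. Division of reads between like segments outside the pairs was not removed. Of the 39, 5 were at 0 in some library, and in the other 34 the highest library exceeded the lowest by 1.28-fold to 8.71-fold, with a median of 1.78. Over all 104 tested segments the median ratio was 1.46.

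By read share, Trav7-4 led with 363.00, 302.14 and 395.79 reads (4.01% ± 0.51 of Trav reads). It was the most read segment in each library, and after scaling for library size its highest and lowest libraries differed by 1.11-fold and were not called (adjusted p = 0.360). Against Trav totals its share was called, with 4.50% in library 1 at the top and 3.48% in library 3 at the bottom. Trav7d-4, whose V exon was 99.7% identical, held 0.728%, 1.36% and 1.32% of Trav reads, lowest in library 1. The part of division of reads between Trav7-4 and Trav7d-4 in this call was not tested. Next after Trav7-4 was Trav9-1 with 329.82, 250.52 and 362.29 reads (3.54% ± 0.48). Trav4-4-dv10, which the symbol marks as usable by the delta chain too, had 298.99, 209.68 and 365.83 reads (3.24% ± 0.45). Trav3-3 had 283.45, 171.84 and 275.04 reads, lowest in library 2 (2.74% ± 0.67).

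Next came Trav14-2 with 175.17, 208.78 and 292.71 reads, Trav12-2 with 194.51, 136.91 and 273.23, and Trav9-4 with 199.42, 164.48 and 220.72. All 3 were highest in library 3. Trav14n-3 had 122.98, 157.61 and 313.06 reads, a 2.31-fold range after scaling (adjusted p = 4.11e-16), with library 3 far above both others. Trav14d-1 and Trav14n-1 had the same values, 141.26, 126.13 and 294.20 reads each, again highest in library 3.

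Lengths differ between segments, so levels were also compared per length. In TPM the order of the leaders changed: Trav3-3 had a mean level of 47.2 ± 6.80, Trav4-4-dv10 47.1 ± 7.81, Trav9-1 45.7 ± 4.57 and Trav7-4 44.8 ± 2.50. These 4 levels lay within each other's SD and could not be ordered. Trav14-2 (39.9 ± 7.29) and Trav14n-3 (36.9 ± 13.8) came next, with spreads that overlapped those of the leaders. Trav7-2 followed at 32.7 ± 29.2, a spread described with the copies below.

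Subgroup 14 received most reads, 14.1%, 15.5% and 17.2% of Trav reads in libraries 1, 2 and 3 (mean 15.6% ± 1.58), from 9 segments. Subgroup 7, with 13 segments, had 14.2%, 15.2% and 13.1% (mean 14.2% ± 1.06) and exceeded subgroup 14 in library 1. The pair could not be ordered beyond the spread between libraries. Subgroups 9 (11.4% ± 0.61), 6 (10.2% ± 0.10) and 4 (9.69% ± 0.36) followed in this order in every library. Per length, in shares of Trav TPM, subgroups 14 and 7 remained first with 15.8% and 13.9%, while subgroup 9 moved to 9.35%, under 6 (10.8%) and 4 (9.80%).

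**Figure D1:**
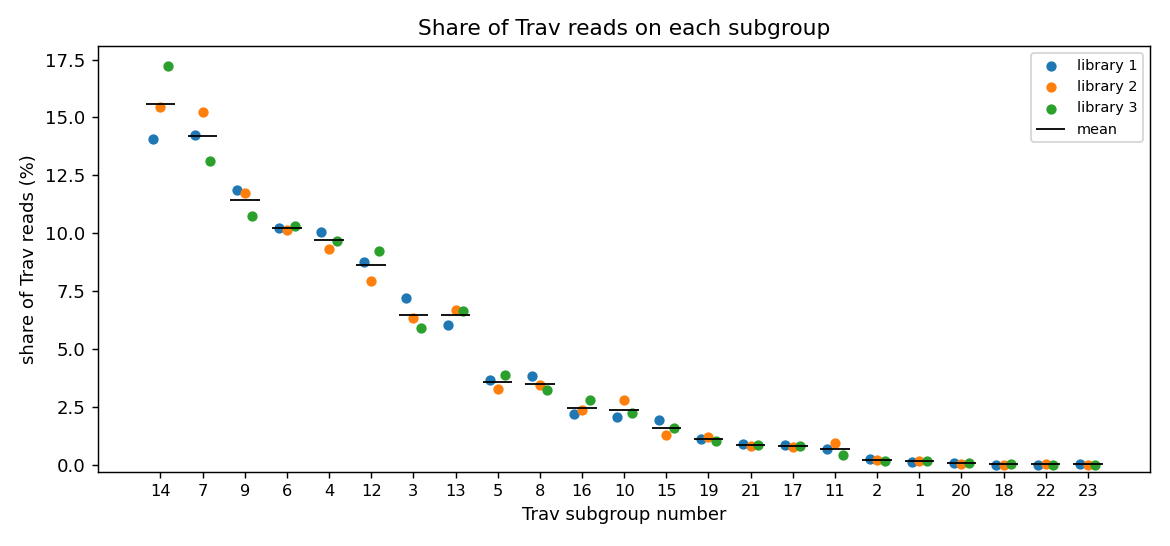
Share of Trav reads (%, vertical axis) on each of the 23 Trav subgroups (horizontal axis, ordered by mean share), with a point per library and a line at the mean. Subgroups 14 and 7 lie at 13.1% to 17.2% and overlap, and the last subgroups lie near 0.

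Reads per segment gave another view of these subgroups. Subgroup 14 had 157 reads per segment on average and all 9 of its members passed the threshold of 10. Subgroup 7 had 96.9, subgroup 9 had 92.6, subgroup 4 had 96.6 and subgroup 6, with 15 members, 61.2. Of the 23 subgroups, 9 rested on a single segment, each in the 5′ or the 3′ single block. Trav19 had 90, 88 and 115 reads, Trav21-dv12 had 71, 59 and 95, and Trav17 had 68, 57 and 93, in whole numbers because every word of these segments was unique.

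Against Trav totals, 9 of 19 tested subgroup sums were called, with p-values adjusted together with those of other genes as above. Subgroup 9 lay just under the threshold, with an adjusted p of 0.0498. Against library sizes, 79.8% of all tested genes were called. Subgroup 14 had the smallest adjusted p, 5.48e-07, with a 1.22-fold range, highest in library 3 and lowest in library 1. Subgroup 11 ranged 2.24-fold (adjusted p = 0.000133), highest in library 2 and lowest in library 3. Subgroup 6, with a range of 1.02-fold, was not called. The order of subgroups was close between libraries, with Spearman's rho of 0.991 to 0.995 over 23 subgroups, a description without a test since all points of a library share its depth and preparation. Over the 128 single segments rho was 0.821 to 0.915.

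The 9 segments of subgroup 14 are shown up to the conserved cysteine codon because they are the most used family and because their likeness limits how their reads could be told apart. Each window is 60 bases long, on the plus strand of chr14 in mm10, and capitals mark bases unlike Trav14-1. The windows of Trav14d-1, Trav14d-2, Trav14n-1 and Trav14n-2 have the same letters, and only that of Trav14d-1 is printed.
Trav14-1: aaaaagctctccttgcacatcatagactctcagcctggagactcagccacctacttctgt
Trav14d-1: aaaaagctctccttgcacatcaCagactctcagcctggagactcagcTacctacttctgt
Trav14d-3-dv8: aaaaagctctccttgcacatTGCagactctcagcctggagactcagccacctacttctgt
Trav14n-3: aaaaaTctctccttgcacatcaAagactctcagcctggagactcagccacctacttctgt
Trav14-2: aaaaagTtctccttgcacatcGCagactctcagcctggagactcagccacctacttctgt
Trav14-3: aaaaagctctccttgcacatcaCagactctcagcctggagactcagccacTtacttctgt

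These windows differed from Trav14-1 at 2 or 3 of 60 bases. Over the whole V exon, identity to Trav14-1 ran from 92.6% to 95.8%. Of the 9 segments, 4 had no unique 50-base word (Trav14d-1, Trav14n-1, Trav14d-2 and Trav14n-2), while 95.1% of the words of Trav14-1 were unique.

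Scaled by library size, subgroup 14 did not vary as a block. Trav14n-3 and the pair Trav14d-1 with Trav14n-1 were highest in library 3. Trav14d-2 and Trav14n-2, at 91.05, 53.13 and 90.43 reads each, were highest in library 1. Trav14d-3-dv8 (119.20, 157.30 and 212.43 reads) and Trav14-1 (111.31, 130.18 and 192.59) were highest in library 3, as Trav14-2 was. Trav14-3, with 143.71, 141.60 and 178.96 reads, was the only one of the 9 not called (adjusted p = 0.595).

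**Figure D2:**
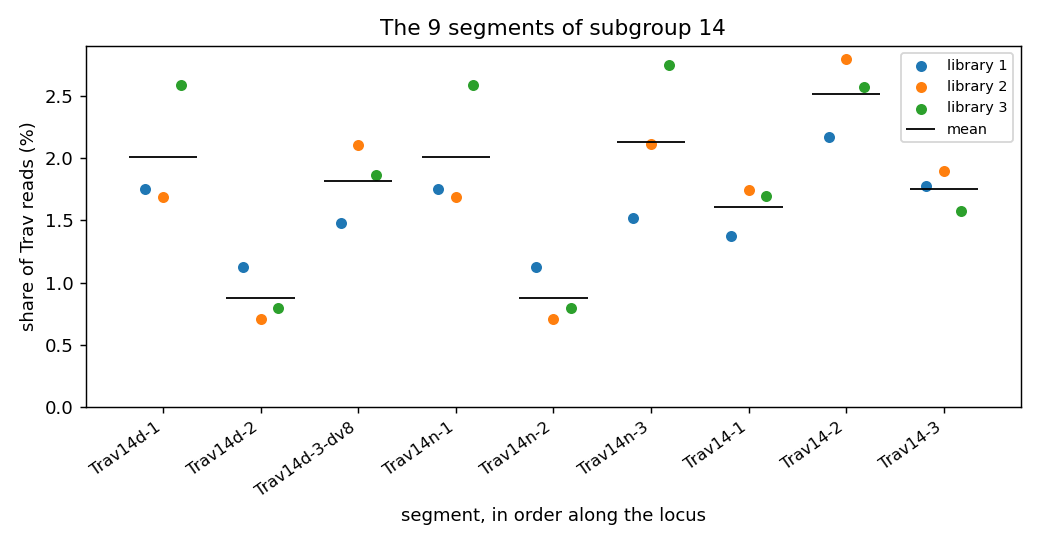
Share of Trav reads (%, vertical axis) on each of the 9 segments of subgroup 14 (horizontal axis, in order along the locus), with a point per library and a line at the mean. Library 3 is highest for Trav14d-1, Trav14n-1 and Trav14n-3 and not for the other 6, and the copies Trav14d-1 and Trav14n-1 carry the same values, as do Trav14d-2 and Trav14n-2.

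Near-identical copies paired by shared words held 32.8% ± 0.58 of Trav reads. Segments that shared at least 90% of the smaller member's 50-base words formed 23 pairs, 19 of a d with an n copy and 4 of a d copy with an unmarked one. The 46 segments of these pairs held 32.5%, 32.4% and 33.5% of Trav reads. Some segments outside the pairs also had very like V exons, such as Trav7-4 with Trav7d-4 (99.7% identity) and Trav9-1 with Trav9d-1 (99.3%). Their reads are not in these shares. In 17 pairs the annotated transcripts of both copies had the same sequences, and in all 17 the expected counts were split equally in every library. In the other 6 pairs the transcripts differed, if only by a base, and in none was the split equal in every library.

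Trav7-2 and Trav7d-2 show how this appears in the counts. Their V exons have the same letters except that Trav7d-2 has 1 more base at its end, in capitals (chr14:53391104-53391142 and chr14:52684433-52684472, plus strand).
Trav7-2: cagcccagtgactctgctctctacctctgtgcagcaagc
Trav7d-2: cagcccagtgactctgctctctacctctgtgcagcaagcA

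Trav7-2 had 228.79, 0 and 358.33 reads, and Trav7d-2 had 0, 222.13 and 0. All reads of the pair fell on one copy in each library, and the copy changed between libraries. The authors' posterior mean count, a second estimate in the same tables, gave Trav7-2 128.45, 90.71 and 202.36 reads with posterior standard deviations of 66.18, 58.58 and 97.69, and Trav7d-2 100.18, 131.49 and 156.01. On that scale the copies overlapped in every library. Their sums were 228.79, 222.13 and 358.33, highest in library 3 by 1.42-fold over the lowest (adjusted p = 3.72e-05).

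The members with the largest chi-square values were largely of this kind: Trav7d-2, Trav12d-3, Trav7-2 and Trav6d-3 came first, and Trav14n-3 was the fifth. Trav12d-3 had 0, 0 and 179.13 reads while Trav12n-3 had 190.04, 168.22 and 86.45. Trav6d-3 had 23.54, 80.12 and 14.41 reads while Trav6-3 had 62.46, 8.48 and 81.59, the reverse order. Summed, Trav6d-3 with Trav6-3 had 86.00, 88.60 and 96.00 reads and were not called (adjusted p = 0.735), although both had been called alone. For a single copy of a pair, a call can thus reflect the division of reads as well as the level, and the values given for single copies carry that limit. Of the 20 pairs tested as sums, 12 were called, where 79.8% of all tested genes were.

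**Figure D3:**
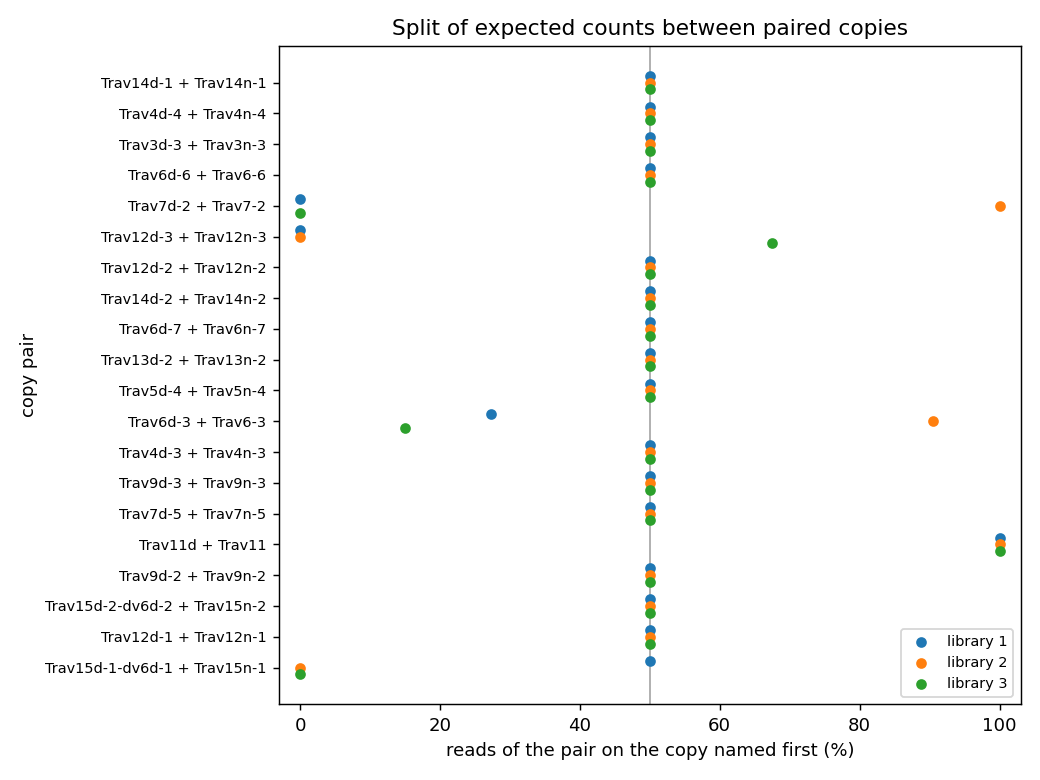
Percent of a pair's expected counts that fell on the copy named first (horizontal axis) for the 20 copy pairs with a mean of 10 or more reads in sum (vertical axis), with a point per library. The pairs with the same transcript sequences sit at 50% in every library, whereas Trav7d-2 with Trav7-2 moves between 0 and 100%.

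With pairs summed and all other segments kept alone, 86 units were tested and 47 called (54.7%), of which 35 were highest in library 3. Of all tested genes, 79.8% were called, and 27% were called and highest in library 3. The latter share was 37.8% among tested genes of up to 600 bases. Trav14d-1 with Trav14n-1 then led, with 282.52, 252.26 and 588.40 reads (4.02% ± 1.00), beside Trav7-4 at 4.01% ± 0.51, and the 2 could not be ordered. Library 3 stood at 1.96 times the lowest library for this pair. Spearman's rho between libraries was 0.949 to 0.958 over 105 units. Trav7-6, named after its values were seen, had 117.13, 47.77 and 39.14 reads and went the other way, with library 1 at 3.30 times library 3 after scaling (adjusted p = 1.41e-12). Of its words, 56.9% were unique.

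Distal segments were those whose midpoint lay before the middle of the span, 53202803, and proximal segments those nearer to Trac. The 59 distal segments received 26.1%, 32.9% and 31.9% of Trav reads (mean 30.3% ± 3.65), and the 69 proximal segments the rest. Library 1 was lowest, and its 95% Wilson interval of 25.2% to 27.1% did not meet that of library 2, 31.8% to 34.0%. These intervals cover counting error only and not the division of reads between copies. In libraries 1 and 2 the distal copy Trav7d-2 was listed with 0 and 222.13 reads, and its proximal copy Trav7-2 with 228.79 and 0. Distal segments made up 46.1% of all segments. They had 46.3 reads per segment against 90.4 for proximal ones.

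The division of reads between copies bears on this share, since 18 of the 23 pairs had a copy on each side of the midpoint and held 27.4% of Trav reads. With all of those reads on the proximal copy the distal share would be 14.7%, 17.7% and 19.8%, and with all on the distal copy 42.6%, 45.5% and 46.5%. Proximal segments held the larger share in all 3 libraries in both cases. In the second case, however, the distal share of 42.6% to 46.5% was near the 46.1% of segments that were distal. Reads that fit like segments outside the pairs were left as listed. Among the 53 segments with 50% or more unique words, the median level was 3.28 TPM for 18 distal and 10.3 TPM for 35 proximal segments.

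The locus was also read by its blocks, from the far end to Trac. The 8 single segments at the 5′ end, Trav1 to Trav6-2, held 2.18% ± 0.15 of Trav reads. The 39 d copies held 19.2%, 25.3% and 22.9%, and the 34 n copies 21.8%, 22.5% and 22.9%. Most pairs join a d with an n copy, and the division within those pairs does not enter the blocks' sum of 41.0%, 47.9% and 45.9%. That sum is still open to division in the 4 pairs with an unmarked copy. The same holds for like segments outside the pairs, such as Trav7d-4, whose V exon was 99.7% identical to that of Trav7-4. The 40 unmarked segments of the same subgroups nearer to Trac held 54.0%, 47.1% and 49.1%, and the 7 single segments at the 3′ end 2.81% ± 0.09. The whole-number table, which listed 28 of the segments without a unique word at 0, gave other shares. There the d copies held 7.82%, 10.5% and 10.6%, the n copies 9.60%, 10.2% and 10.9%, the unmarked block 69.0%, 65.1% and 64.2%, and the 3′ single segments 9.64%, 9.86% and 8.98%.

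Per length and over V genes alone, the unmarked block had a median level of 17.5, 16.5 and 19.8 TPM in libraries 1, 2 and 3. The median was 8.03, 9.73 and 12.1 for n copies and 4.28, 8.38 and 7.84 for d copies. The unmarked block was highest in each library. At the 5′ end the median was 3.27, 2.89 and 3.58 TPM over 7 V genes, and at the 3′ end 11.95, 10.78 and 13.01 over 5. Levels within the unmarked block ran from 0 to 47.2 TPM.

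**Figure D4:**
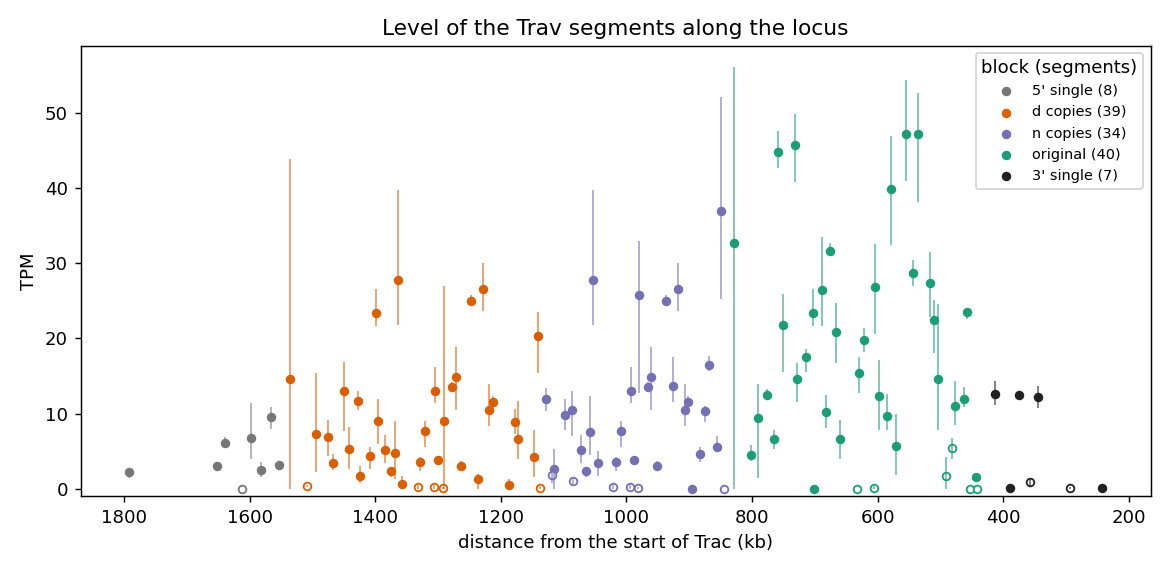
Level of each Trav segment (mean TPM over 3 libraries, vertical axis) against its distance from the start of Trac (kb, horizontal axis, Trac to the right), coloured by block, with lines from the lowest to the highest library and open circles for pseudogenes. The 4 highest points, at 44.8 to 47.2 TPM, lie in the unmarked block, and the long lines that reach 0 belong to copies whose reads moved between libraries.

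Of the 128 members, 10 carry dv in the symbol, the mark of V segments that can join to delta as well as alpha. They held 10.4%, 8.89% and 9.82% of Trav reads, from 7.81% of the segments. In the whole-number table the share was 16.5%, 15.4% and 17.2%. Trav4-4-dv10 alone accounted for 3.24%. Trav15-2-dv6-2, named after its values were seen, had 60.51, 10.48 and 36.65 reads, with a 5.35-fold range after scaling (adjusted p = 8.17e-08). With Trdc near 3 TPM and Trac at 2046.94 TPM or more in every library, reads on the dv segments could not be assigned to either chain.

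Pseudogenes held 0.571%, 0.840% and 0.912% of Trav reads. Among the 20, 3 had a mean of 10 or more reads: Trav8-2 with 21.85, 33.87 and 36.40, Trav13-3 with 4.19, 0 and 26.58, and Trav9n-1 with 3.95, 14 and 12.59. Only Trav13-3 was called, and 14.98% of its words were unique. Of the 7 segments with no read, 5 were pseudogenes (Trav4-1, Trav15n-3, Trav3-2, Trav15-3 and Trav12-4), and the others were the V genes Trav11 and Trav7n-6.

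Both of these V genes at 0 shared their words with a gene that had reads. Trav7n-6 had no unique word, and C920008G01Rik, a V gene of the same locus without a Trav symbol, had 40.86, 41.51 and 73.22 reads. For Trav7n-6 the posterior mean was 20.77, 19.33 and 38.07. A value of 0 for these segments is thus a listing and not evidence that they were silent. Trav13d-3 and Trav13n-3 lie within the antisense genes Gm30214 and Gm43650, and since no source used here says whether strand was counted, their reads are uncertain.

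Trav11 and Trav11d are the copies that encode the invariant alpha chain of natural killer T cells, a lineage that recognises lipids on CD1d. All reads of the pair were listed on Trav11d, at 50.40, 61.74 and 39.16, and none on Trav11, whose posterior means were 26.28, 32.80 and 17.69. Their windows up to the cysteine codon have the same letters (chr14:53519790-53519849 and chr14:52824844-52824903, plus strand).
Trav11 and Trav11d: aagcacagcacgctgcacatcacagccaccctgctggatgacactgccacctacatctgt

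The sum was highest in library 2 and lowest in library 3, a 1.88-fold range (adjusted p = 0.00886), against the direction of most segments. Zbtb16, the factor that marks these cells, was also highest in library 2, at 1.72 TPM against 0.09 and 0.18. Klrb1c, a receptor gene found on natural killer and natural killer T cells, was lowest there, at 1.09 TPM against 2.31 and 2.91. The part of such cells in the reads on the pair was not tested. Trav1, the segment of the invariant chain of mucosal-associated T cells, had 9, 13 and 18 reads (1.47, 2.64 and 2.60 TPM) and was not called (adjusted p = 0.365).

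Just inside the threshold of 10 mean reads were Trav6d-5 at 10.04, Trav9n-1 at 10.18 and Trav13-3 at 10.26, and just outside it were Trav9d-4 at 8.84, Trav11n at 6.23 and Trav20 at 5.33. At these levels single libraries held between 0 and 27 reads, and differences between segments were not tested. Between libraries, Trav6d-5 (3.88, 7.07 and 19.16 reads, adjusted p = 0.00940) and Trav13-3 (adjusted p = 5.28e-08) were called. Trav18 and Trav23, V genes of the 3′ single block with all words unique, had 2 reads and 1 read over all libraries, beside the higher counts of Trav17, Trav19 and Trav21-dv12 in the same block.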

How the data were processed

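Polyadenylated RNA of activated mouse regulatory T cells was measured in 3 libraries. The authors deposited, per the file headers, expected counts, posterior mean counts with their standard deviation, TPM and effective lengths per gene, on mm10 with GENCODE M21 per the deposited library notes. They also deposited a table of whole-number counts per gene with GENCODE M4, listing 99 Trav genes. The quantifying program is not given in the sources used here. A read length of 50 bases was inferred from effective lengths. Entries outside mouse genes, 0.166% to 0.229% of reads, were left out.

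Expected counts were rounded for testing. TMM sizes came from edgeR 4.0.16 in R 4.3.3, with DESeq2 1.42.0 as an alternative. A chi-square test with 2 degrees of freedom was applied to genes averaging 10 reads or more and called at an adjusted p of 0.05, in Python 3.11.15 with scipy 1.17.1. It was checked on simulated counts. p-values measure spread between technical libraries only. Words of 50 bases came from all GENCODE M21 transcripts, and V exons were aligned with Biopython 1.88.

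The members, lists and rules were chosen with earlier results of these data known. Named segments were the 10 with the highest mean share, the 3 on each side of the read threshold, the 5 largest chi-square values, the most used of the 5 leading subgroups, all of the leading subgroup, Trav1, Trav11, Trav11d, pseudogenes with a mean of 10 or more reads, and the assembly list with Trac and Trdc. Of that list, 3 gamma constant symbols had no match. Of the marker lists, CD8 T cell genes were over 1 TPM in 3 of 3, B cell genes in 4 of 5, thymocyte genes in 1 of 5, natural killer T genes in 2 of 4, mucosal-associated T genes in 2 of 4 and gamma-delta T genes in 1 of 3 matched. The transcript tables, protein sequences and recombination signals beside the segments were not analysed here.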

Additional observations from a re-analysis of the deposited data

How the results depend on the processing

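Of 55 alternatives over the 6 results, 41 stayed close to the reported value. A share was taken as close when it moved by less than its SD between libraries. Counts were judged by a fold rule, under which 39 segments (against Trav totals) and 44 (without library 2) were close to 57. With single libraries left out, the count of segments that differ lay between 30 and 44. The other results kept to 97 to 104 segments with 10 reads, 0.0264% to 0.0311% of gene reads, a distal share of 29.0% to 32.4%, a top-5 share of 15.2% to 17.0% and a leading-subgroup share of 14.8% to 16.3%, with subgroup 14 leading each time. The count of 57 fell to 37 of 104 without library 1 and to 30 of 97 without library 3, where fewer libraries were compared. It was 15 of 56 in the whole-number table, 13 of 19 for subgroup sums, and against Trav totals 9 of 19 for subgroup sums and 35 of 86 with copy pairs summed. In the main setting, 79.8% of all tested genes were called. The Trav share was 0.144% in TPM, and 64 segments had a mean of 50 reads. The distal share was 17.4% in the whole-number table, 3.98% without the d and n copies, which make up most distal segments, and 44.9% or 17.4% with the reads of pairs astride the midpoint all on the distal or the proximal copy. The top-5 share was 22.5% in the whole-number table and 18.4% with copy pairs summed. The whole-number table listed 33 of the 42 segments without a unique word, 28 of them at 0 in every library. Alternatives that sum or reassign copy pairs, and the one joining subgroup sums with Trav totals, were chosen after seeing the data. No paired analysis was possible because there is only 1 group. Depth limits the 24 segments under 10 reads.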
